A study of Caenorhabditis elegans with 2 samples.

Results

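Divergent promoters are stretches of DNA from which a gene on the minus strand and a gene on the plus strand are transcribed away from each other. Of the 1373 autosomal peaks in the deposited list that was thresholded by IDR, 411 (29.9%) had their summit in such a stretch. A peak was a member when its summit lay from 1000 bp upstream to 200 bp downstream of annotated transcript starts of protein-coding genes on both strands. IDR, the irreproducible discovery rate, scores how well the ranks of regions repeat between replicates. The rule used the position of the summit and the annotation alone. The signal of a peak had no part in it. A further 585 autosomal peaks lay in the promoter window of genes on a single strand, and 377 lay in no promoter window. The X chromosome, with 211 of the 1584 peaks in all, was left out by the rule.

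The peaks come from chromatin immunoprecipitation sequencing (ChIP-seq), in which DNA bound by a protein is enriched and sequenced, of C. elegans at the third larval stage (L3). There was 1 group with 2 biological replicates, each made from whole larvae of pooled male and female sex. All animals were of strain OP218, which carries the unc-119(ed3) mutation on chromosome III and the integrated transgene wgIs218, and the immunoprecipitated protein was the eGFP-tagged product of R02D3.7, a gene that the annotation used here names rcat-1. No control sample was among those analysed here, so binding by the tagged protein cannot be told apart from signal that any tag would give, and a promoter is called bound below when a summit was listed there.

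In a compact genome such as that of C. elegans, many neighbouring genes point away from each other and share the DNA between their starts. A factor bound there lies upstream of both genes, and its position does not say which of them it acts on. Many transcripts of this species receive a short leader by trans-splicing, so an annotated start can be the splice site and not the base at which RNA polymerase began. Distances to starts below are distances to annotated starts. Because whole larvae were used, fewer cells with a bound promoter and less binding per cell cannot be told apart.

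The members of highest signal carried a recurrent stretch of 8 bases, CGTAAATC. The 5 members with the highest signal are shown first, with the 101 bp centred on the summit on the plus strand of ce11 (the WBcel235 assembly, RefSeq sequence). Each line names the minus-strand gene and then the plus-strand gene, and capitals mark CGTAAATC or its reverse complement GATTTACG.
rpl-20/Y17G9B.5, chrIV:4750015-4750115, plus strand: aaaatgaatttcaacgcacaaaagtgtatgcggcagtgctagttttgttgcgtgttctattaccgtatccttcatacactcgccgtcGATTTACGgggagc
rbc-2/ndua-8, chrIII:2528765-2528865, plus strand: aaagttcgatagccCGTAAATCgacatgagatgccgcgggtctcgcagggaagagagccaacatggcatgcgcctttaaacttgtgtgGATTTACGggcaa
hmgs-1/F25B4.4, chrV:5684693-5684793, plus strand: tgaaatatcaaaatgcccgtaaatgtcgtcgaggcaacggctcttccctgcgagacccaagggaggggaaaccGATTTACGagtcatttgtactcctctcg
ska-3/rps-12, chrIII:5679077-5679177, plus strand: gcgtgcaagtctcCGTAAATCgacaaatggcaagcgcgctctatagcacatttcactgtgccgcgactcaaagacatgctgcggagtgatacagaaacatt
hat-1/M03C11.3, chrIII:10407407-10407507, plus strand: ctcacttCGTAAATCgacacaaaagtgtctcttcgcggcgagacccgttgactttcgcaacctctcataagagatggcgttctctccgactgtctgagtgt

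All 5 windows held the 8 bases, and the window between rbc-2 and ndua-8 held them at both sides of the summit, in opposite orientation. The next lines align the element of the 12 such members of highest signal. They are read along the strand on which the 8 bases are CGTAAATC, which stand in capitals, with 8 bases before and 10 after.
rpl-20/Y17G9B.5, chrIV:4750092-4750117, minus strand: ccgctcccCGTAAATCgacggcgagt
rbc-2/ndua-8, chrIII:2528771-2528796, plus strand: cgatagccCGTAAATCgacatgagat
hmgs-1/F25B4.4, chrV:5684756-5684781, minus strand: aaatgactCGTAAATCggtttcccct
ska-3/rps-12, chrIII:5679082-5679107, plus strand: caagtctcCGTAAATCgacaaatggc
hat-1/M03C11.3, chrIII:10407406-10407431, plus strand: tctcacttCGTAAATCgacacaaaag
rpl-15/K11H12.8, chrIV:654974-654999, plus strand: tcgtccgcCGTAAATCgacacgaatt
R05D3.8/rfp-1, chrIII:8358345-8358370, plus strand: tgttcggtCGTAAATCtaccccattt
T23F6.3/rbd-1, chrIV:12724863-12724888, plus strand: ttgtttaaCGTAAATCgacacggatt
rps-0/rbg-3, chrIII:4754378-4754403, minus strand: gctttcgtCGTAAATCtacacacgcg
ubq-2/frg-1, chrIII:12979014-12979039, minus strand: ccccttccCGTAAATCctgcagctct
wapl-1/htz-1, chrIV:4445846-4445871, plus strand: agctccgcCGTAAATCtacacacccg
cyn-4/copz-1, chrII:10872698-10872723, plus strand: aatcggctCGTAAATCtacacgaaaa

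The bases after the element were alike too. Over the 78 copies at member summits the second base after the element was A in 83.3%, the third was C in 85.9%, the fourth was A in 78.2% and the fifth was C in 64.1%. The first base after it varied more and was G in 52.6% of the copies. Just before the element, C stood in 50% and T in 33.3% of the copies.

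CGTAAATC was the most frequent 8-base string among those at least 10 times as frequent at member summits as in windows 500 bp to each side. A pair of other strings was chosen by the highest ratio of these shares, among strings in at least 5% of members. The first was ACGACACT, shown in capitals for the 5 members of highest signal that carry it.
cic-1/strm-1, chrIII:2401339-2401364, minus strand: gacatacaACGACACTccggaatccc
Y39B6A.3/pph-5, chrV:19190263-19190288, plus strand: caaacacaACGACACTccgctcacct
F54C4.4/mrpl-40, chrIII:87410-87435, minus strand: attcccaaACGACACTccgctatccc
K07B1.7/try-5, chrV:9346974-9346999, plus strand: acattttgACGACACTccgatatttc
luc-7L3/sftb-6, chrII:98086-98111, minus strand: gcacaacaACGACACTccgaaattac

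In all 5 the string was followed by CCG. The next, CGCCAGCA, is shown in the same way.
cct-8/Y55F3AR.2, chrIV:1094310-1094335, minus strand: gcgggaccCGCCAGCAatttcaatgc
haf-3/F57A10.2, chrV:15766376-15766401, minus strand: tggaaatgCGCCAGCAgcccctctgg
F01G4.6/pfd-1, chrIV:11149807-11149832, plus strand: tggcaatgCGCCAGCAaacatttcta
dnsn-1/C24H12.4, chrII:411051-411076, minus strand: aagaaatgCGCCAGCAgtctcccttt
metl-1/W02B12.11, chrII:11473767-11473792, plus strand: tcgatttgCGCCAGCAatcaattttc

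The 8-base element was found within 100 bp of the summit of 76 members (18.5%), on either strand. In the windows of the same length (201 bp) centred 500 bp to each side it was found in 6 of 822 (0.730%). It was found at 67 of the 585 single-strand promoter peaks (11.5%) and at 18 of the 377 peaks off promoters (4.77%). Of the midpoints of all 2382 autosomal divergent gene pairs, 2.31% held it, and 0.604% of the midpoints of pairs with no summit. The element was chosen after the strings at these summits had been seen, so these shares describe it and test nothing. A match is a run of letters, not a shown binding site.

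Copies of the element lay close to the summit, at a median of 24.5 bp, and 71 of the 78 lay within 50 bp. They had no single orientation: 38 were on the plus strand and 40 on the minus strand, and 34 read toward the nearer gene against 44 away from it. In 74 members there was 1 copy and in 2 members there were 2 copies, those at rbc-2 and ndua-8, a subunit of respiratory complex I, and at cyn-4, a cyclophilin, and copz-1, a subunit of the coatomer of transport vesicles.

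Members with the element had the higher signal. Signal is the authors' own value for a region, on an unstated scale, and it is compared only within a list. The median was 384 over the 76 members with the element (quartiles 218 and 791) and 90.6 over the 335 without it (quartiles 65.8 and 153). In the list of replicate 1 the medians were 237 and 49.0, and in that of replicate 2 they were 153 and 42.9. The element was present in 34 of the 50 members of highest signal and in 8 of the 200 of lowest signal.

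**Figure D1:**
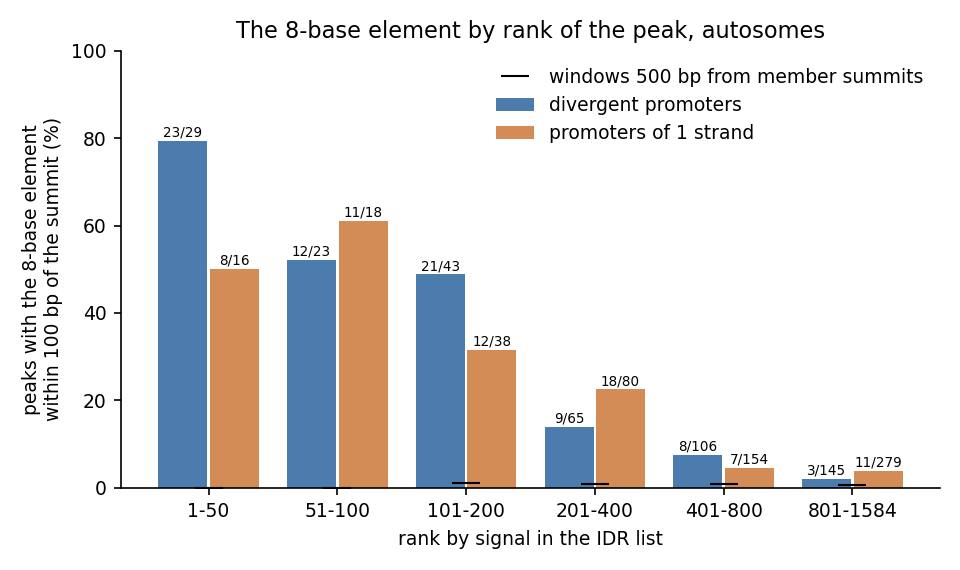
Share of autosomal peaks with the 8-base element within 100 bp of the summit (%), by rank of signal in the IDR list, for peaks in divergent promoters (blue) and in single-strand promoters (orange). Labels give the peaks with the element over all peaks of that class, and black dashes the share in windows 500 bp from member summits. The share in divergent promoters was 79.3% at ranks 1 to 50 and 2.07% at ranks 801 to 1584.

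Over the ranks of the whole list the share of members with the element was 79.3% (23 of 29) at ranks 1 to 50, 52.2% (12 of 23) at ranks 51 to 100 and 48.8% (21 of 43) at ranks 101 to 200. It was 13.8% (9 of 65), 7.55% (8 of 106) and 2.07% (3 of 145) at ranks 201 to 400, 401 to 800 and 801 to 1584. Single-strand promoters had shares of 50%, 61.1%, 31.6%, 22.5%, 4.55% and 3.94% in the same classes. The bar plot of the element by rank shows this fall in both kinds of promoter. Whether they differ was not tested. The starts were a median of 445 bp apart in members with the element and 498 bp in those without it.

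The element was also counted over divergent gene pairs. A divergent pair is a minus-strand coding gene followed by a plus-strand coding gene, taken at their most upstream starts, no more than 2000 bp apart. Of the 2382 autosomal pairs, 394 (16.5%) had a summit in both promoter windows. The element lay in the shared window of 148 pairs, of which 81 were bound (54.7%), and 313 of the 2234 pairs without it were bound (14.0%). With the same number of regions taken from one replicate's list, the shares were 56.8% against 14.4% in replicate 1 and 53.4% against 11.0% in replicate 2. The element was picked for its excess at these same summits, and the replicate lists hold mostly the same peaks, so these shares follow in part from that choice and are given as a description. The string itself is far more common than the peaks, with 5903 matches on the autosomes.

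ACGACACT was found at 38 members (9.25%), at 1 of the 822 flanking windows, at 3.93% of single-strand promoter peaks and at 1.86% of peaks off promoters. Its members had a median signal of 254, against 103 for members without it, and medians of 173 and 91.4 in replicates 1 and 2. It was present together with CGTAAATC in 20 members. With the bases that most often followed it, the end of CGTAAATC reads CGACAC, a run that ACGACACT also holds. The 2 strings are thus alike in part, and the bearing of this on their shared members was not tested. CGCCAGCA was found at 25 members (6.08%), at 0 of the 822 flanking windows and at 5.98% of single-strand promoter peaks. Its members had a median signal of 95.8, against 108 for members without it, and none of them held either of the other strings. At least 1 of the 3 strings was present at 119 members (29.0%). ACGACACT and CGCCAGCA were picked for a high ratio over flanking windows, so their low flanking counts follow from that choice and test nothing.

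Among six-base strings, those made of G and C in alternation led. The 5 with the highest ratio of their share at member summits to that in the flanking windows were CGCGCG (12.7% against 0.487%), GCGCGC (17.8% against 1.09%), ACGCGC (24.6% against 2.55%), GCGCAC (25.8% against 2.80%) and CGCGCA (17.5% against 2.43%), each searched on both strands. These strings overlap one another by up to 5 letters, so they are not separate counts. Of all divergent pair midpoints, 3.57% to 6.93% held one of them. At single-strand promoter peaks and peaks off promoters the shares were 11.8% and 10.1% for CGCGCG, 15.7% and 13.3% for GCGCGC, 21.2% and 10.3% for ACGCGC, 18.6% and 9.81% for GCGCAC, and 21% and 13.5% for CGCGCA. Members with the leading string, CGCGCG, had a median signal of 85.4 against 110 without it. Over the other strings, the median signal ran from 98.7 to 107 in members with the string and from 106 to 108 in members without it.

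Median base composition was the same in the 3 classes of peaks. Within 50 bp of the summit the median share of G and C was 47.5% in members, and it was 47.5% in each of the other autosomal classes. In the flanking windows of members it was 38.6%, and at the midpoints of all divergent pairs it was 33.7%. The part of base composition in the excess of these strings over flanking windows was not tested.

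The motifs taken from a set list, all but TGCGTCTC being known elements, went in both directions. GAGAGA, a repeat known to be bound by GAGA factor in Drosophila, was found at 21.7% of members, 37.8% of single-strand promoter peaks and 57.6% of peaks off promoters, with 10.2% in the flanking windows of members. TGCGTCTC, which the list ties to no named element, was found at 6.81%, 16.2% and 22.8% of the same classes and at 0.852% of the flanking windows. GGGCGG, the core of sites of Sp1 family factors, was found at 14.6% of members, 7.86% of single-strand promoter peaks, 13.3% of peaks off promoters and 3.28% of flanking windows. The trans-splice acceptor string TTTCAG was found at 26.5%, 21.9% and 13.5% of the same classes of peaks and 47.8% of flanking windows. TATAAA was found at 13.4%, 15% and 10.9% of those classes and 15.7% of flanking windows. CACGTG, TGACGTCA and GATAAG were found at 4.38%, 0.487% and 3.41% of members, at or below their flanking shares of 4.38%, 0.730% and 7.79%. At the midpoints of all divergent pairs the share was 26.7% for TATAAA, 32.3% for TTTCAG and 8.98% for GATAAG. There it was 12.6% for GAGAGA, 2.02% for TGCGTCTC, 5.21% for GGGCGG, 3.78% for CACGTG and 1.34% for TGACGTCA.

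The member of highest signal lay between rpl-20, a gene of the large ribosomal subunit, and Y17G9B.5 (IV, 4749797 to 4750333). Its signal was 3935 in the IDR list, 2418 in replicate 1 and 1526 in replicate 2, ranks 2 and 1 of those lists. The summit was 287 bp upstream of rpl-20 and 175 bp upstream of Y17G9B.5. The next member lay between rbc-2 and ndua-8 (III, 2528558 to 2529058), with a signal of 3017, 1901 and 1109 in the same order and a summit 126 bp from rbc-2 and 248 bp from ndua-8. The start of Y54F10AM.15 was also within reach of that summit. The peak between hmgs-1, whose enzyme makes HMG-CoA in the mevalonate pathway, and F25B4.4 (V, 5684494 to 5684990) had signals of 2064, 1299 and 763, and its summit was nearly central, 154 and 130 bp from the starts.

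Ribosomal protein genes shared their promoter with genes of other functions in several leading members. The peak between ska-3, a gene of the spindle and kinetochore, and rps-12 of the small subunit (III, 5678882 to 5679359) had signals of 1967, 1234 and 746, 122 and 171 bp from the starts. The peak between rpl-15 and K11H12.8 (IV, 654703 to 655154) had signals of 1691, 1009 and 683, at 351 and 463 bp. The peak between rps-0 and rbg-3 (III, 4754133 to 4754598) had signals of 1255, 765 and 493, 320 bp from rps-0 and 53 bp from rbg-3. At ubq-2, which encodes ubiquitin fused to a ribosomal protein, and frg-1 (III, 12978779 to 12979248) they were 1219, 750 and 455, with the summit 474 bp from ubq-2 and 165 bp from frg-1. The ribosomal protein gene was the farther one of the pair at rps-12, rps-0 and ubq-2 and the nearer one at rpl-15.

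Genes of chromatin and of RNA followed. The peak between hat-1, which encodes an enzyme that acetylates histones, and M03C11.3 (III, 10407167 to 10407734) had signals of 1886, 1238 and 640, and lay 209 bp from hat-1 and 759 bp from M03C11.3. The peak between wapl-1, whose product releases cohesin from chromosomes, and htz-1, which encodes the histone variant H2A.Z (IV, 4445693 to 4446086), had signals of 1083, 697 and 388, at 149 and 327 bp. The peak between T23F6.3 and rbd-1, a ribosome biogenesis gene (IV, 12724627 to 12725079), had signals of 1286, 838 and 445, at 85 and 141 bp. Between R05D3.8 and rfp-1 (III, 8358149 to 8358588) they were 1360, 877 and 482, at 51 and 244 bp. All of these 4 carried the 8-base element.

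The other members among the 20 of highest signal ran from 1022 down to 840. They lay between cyn-4 and copz-1 (signal 1022), F09E5.11 and bmy-1 (1003), mrps-7, a mitochondrial ribosomal protein gene, and Y57G11C.3 (984), ahsa-1, which encodes an activator of the chaperone Hsp90, and C01G10.7 (909), gmps-1, a GMP synthase gene, and cap-2, which encodes an actin capping subunit (908), K01G5.10 and tasp-1 (907), dvc-1 and ima-1, an importin alpha gene (897), fars-1, a phenylalanyl-tRNA synthetase gene, and rbm-5 (878), and cic-1, the cyclin C gene, and strm-1 (840). Of the 20 members of highest signal, the lowest rank was 35 in replicate 1 and 37 in replicate 2. The 8-base element was absent from 4 of them, those at mrps-7, gmps-1, tasp-1 and fars-1.

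Signal was higher in divergent promoters than in the other autosomal classes. The median signal was 106 over the 411 members (quartiles 68.8 and 214, range 50.7 to 3935), 87.2 over single-strand promoter peaks and 69.1 over peaks off promoters. Measured at the same peaks, the replicate 1 medians were 59.9, 46.9 and 37.0, and the replicate 2 medians were 49.7, 42.0 and 39.0. The order was the same in both replicates. The ratio of the first to the second median was 1.22, with 1.23 and 1.41 when members were drawn anew from the 1373 autosomal regions of highest signal in replicates 1 and 2. Quartiles of the classes overlapped widely, and the single-strand class held the peak of highest signal (4055).

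Members made up 29.9% of the autosomal peaks and a larger share of the strongest ones. They were 11 of the first 20 autosomal peaks, 30 of the first 50, 58 of the first 100 and 105 of the first 200. In the replicate 1 list the counts were 11, 30, 57 and 106, and in the replicate 2 list 10, 31, 61 and 109. The pooled list held 24015 autosomal regions whose bounds matched those of no IDR peak exactly. Of them 840 (3.50%) had their summit in a divergent promoter and 28.7% in a single-strand promoter. Overlap was not used, so a region overlapping an IDR peak with other bounds still counts as outside the IDR list.

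Divergent promoters are a small part of the genome. Windows of both strands overlapped over 2.23 Mb of the autosomes, windows of a single strand covered 20.2 Mb, and 60.1 Mb lay outside. Summits were found at 185 per Mb of the first, 28.9 per Mb of the second and 6.27 per Mb of the third. The ratio of the first to the second was 6.38, and it was 6.38 and 5.29 in the lists of replicates 1 and 2. These classes differ in distance to starts, since a base in windows of both strands has a start to each side.

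**Figure D2:**
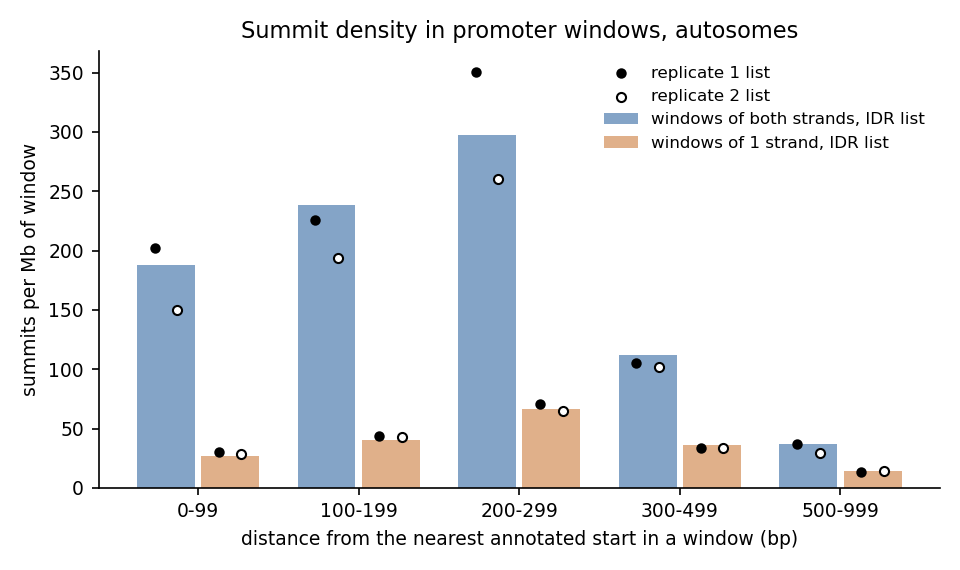
Summits per Mb of promoter window (bars, IDR list), by distance in bp from the nearest annotated start whose window holds the base, in windows of both strands (blue) and of 1 strand (orange). Filled and open circles give the 1373 autosomal regions of highest signal in replicates 1 and 2. Windows of both strands held more summits per Mb in each distance class, with 297 per Mb at 200 to 299 bp. Classes below 200 bp also count bases inside transcripts.

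Grouped by distance to the nearest start, windows of both strands held more summits per Mb in each class. The ratio was lower in the classes farther from starts. The part of distance in the overall ratio was not tested. From 0 to 99 bp there were 188 summits per Mb in windows of both strands and 27.1 in windows of a single strand, a ratio of 6.93 (6.60 in replicate 1 and 5.32 in replicate 2). From 200 to 299 bp there were 297 and 66.1, a ratio of 4.50 (4.95 and 4.01). From 500 to 999 bp there were 36.7 and 14.1, a ratio of 2.61 (2.71 and 2.13), with 10 member summits. The bars of density by distance were highest at 200 to 299 bp in both kinds of window. Distance was taken to either side of a start, and windows reach only 200 bp into a transcript. Classes below 200 bp thus count bases inside transcripts too, and those farther out in effect only upstream bases. Windows of a single strand covered 3.52 Mb at 100 to 199 bp and 1.68 Mb at 200 to 299 bp. The highest bar is therefore not read as a preferred distance. A summit in windows of both strands is near a start on each strand, so these densities are per base and not per gene.

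Counted by gene, 839 of the 17242 autosomal coding genes had a member summit in a promoter window, and 4.87% is the background share for the gene lists below. Of the 4764 genes that belong to a divergent pair, 857 (18.0%) had a summit of any IDR peak in a window, and of the 12478 others 566 (4.54%) had one. A single summit counts for both genes of a pair, which raises the first share. Most members reached 2 genes (383 of 411), 27 reached 3 and 1 reached 4. A name made of the clone and a number only, with no assigned gene name, belonged to 240 of the 839 genes.

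The starts of a member pair lay close together. The nearest starts on each strand were a median of 476 bp apart (quartiles 303 and 705), and 5% of members had less than 140 bp and 5% more than 1164 bp. In replicate 1 the median was 476 bp and in replicate 2 it was 512 bp. The narrowest spacings with the summit between the starts were 12 bp at F32D8.14 and F32D8.5 (signal 71.8), 67 bp at gei-14 and slc-25A32 (458) and 74 bp at trm-1 and ints-2 (77.5). The widest were 1598 bp at nmat-2 and rab-5 (107), 1659 bp at mif-4 and ipla-6 (166) and 1695 bp at anmt-2 and nfm-1 (52.3). In 1 member the transcripts overlapped, at rpb-7, a subunit of RNA polymerase II, and Y54E10BR.2, with a spacing of -3 bp.

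**Figure D3:**
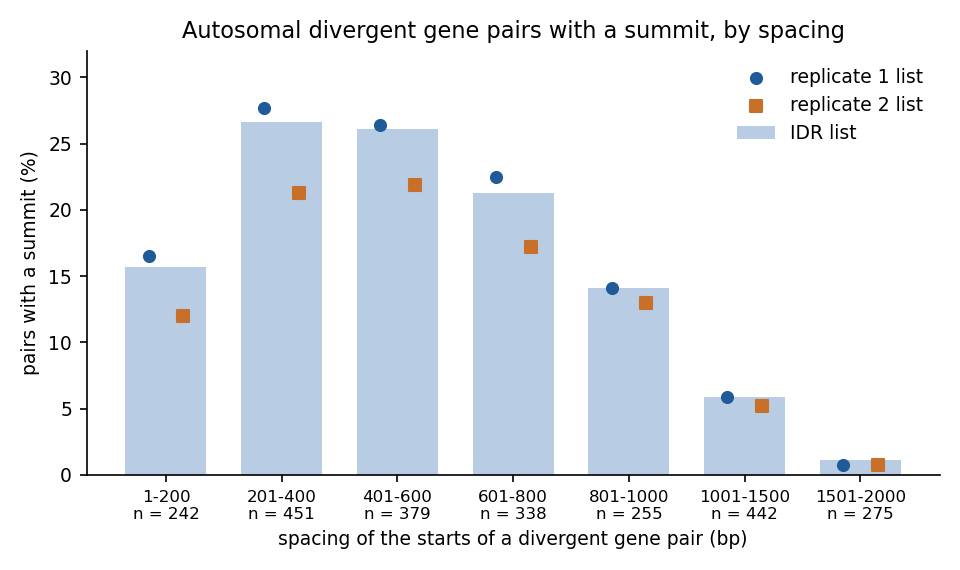
Share of the autosomal divergent gene pairs with a summit in the windows of both genes (%), by the spacing of their starts in bp, with the number of pairs under each class. Bars give the IDR list, circles replicate 1 and squares replicate 2. The share was 26.6% at 201 to 400 bp and 15.7% at 1 to 200 bp.

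Pairs spaced by 201 to 600 bp were bound most often. The share of bound pairs was 15.7% at 1 to 200 bp, 26.6% at 201 to 400 bp, 26.1% at 401 to 600 bp, 21.3% at 601 to 800 bp and 14.1% at 801 to 1000 bp. It was 5.88% at 1001 to 1500 bp and 1.09% at 1501 to 2000 bp, where the windows of both strands share less and less sequence. Pairs at 1 to 200 bp also share less sequence than those at 201 to 600 bp. The part of shared sequence in these shares was not tested. Both replicates had the same shape, with 16.5% and 12.0% in the narrowest class and 27.7% and 21.3% in the next. Bound pairs had a median spacing of 473 bp and the others 730 bp. Regions of the pooled list outside the IDR list changed less with spacing, with 23.6%, 33.7%, 32.5%, 33.1% and 30.2% of pairs over the classes up to 1000 bp.

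A few pairs held more than 1 summit. There were 6 pairs with 2 summits and none with 3: zip-4 and nol-58, cids-2 and phip-1, luc-7L3 and sftb-6, aars-1 and rga-1, ecps-1 and atx-2, and C55A6.1 and C55A6.10. In 3 of the 6 the summits were only 201 to 210 bp apart and matched the same region in each replicate list, so the replicates do not show them as separate: cids-2 and phip-1 (201 bp), luc-7L3 and sftb-6 (201 bp, listed with the same region bounds) and C55A6.1 and C55A6.10 (210 bp). In the other 3 the summits were 561 to 680 bp apart and matched different regions. Among the pairs luc-7L3 and sftb-6 are both splicing genes, and their peak of higher signal (481) ranked 63 in replicate 1 and 119 in replicate 2. Conversely, 11 members belonged to no adjacent pair.

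The summit usually lay between the starts. It did so in 386 of the 411 members (93.9%), and in 92.9% and 93.2% of the members drawn from replicates 1 and 2. It lay inside the plus-strand transcript in 10 members, inside the minus-strand transcript in 15 and inside both in 0. Position was taken from the nearest start on each strand. A summit inside a longer transcript of the same gene can therefore count as between the starts. One example was a summit at aars-1, 63 bp upstream of its nearest start but inside the transcript from its most upstream start. The nearer start was a median of 143 bp away and the farther one 322 bp. The nearer start was within 200 bp in 296 members (72.0%), and both starts were within 300 bp in 191 (46.5%). The strands were nearly balanced: the plus-strand start was nearer in 217 members, the minus-strand start in 192, and the distances were equal in 2. Peaks in single-strand promoters were a median of 245 bp from the nearest start of their window. That value is for a single strand, whereas the nearer start of members is the shorter of 2 distances. Taken by strand, member summits were a median of 209 bp upstream of the plus-strand start and 225 bp upstream of the minus-strand start.

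**Figure D4:**
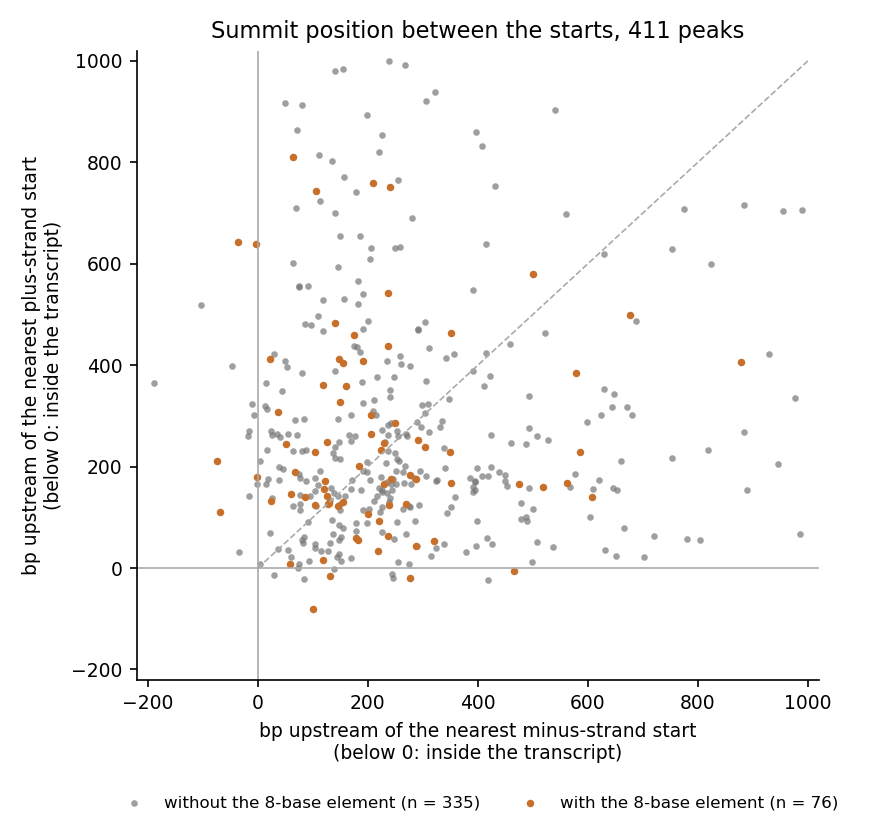
Distance of each member summit upstream of the nearest minus-strand start (x axis, bp) and of the nearest plus-strand start (y axis, bp), for the 76 members with the 8-base element (orange) and the 335 without it (grey). Points on the dashed line are midway between the starts, and points below 0 on an axis lie inside the transcript of that nearest start. Most points, 386 of 411, lie upstream of both nearest starts.

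Of the 386 summits between the starts, 174 (45.1%) lay in the third at the centre of the spacing, 100 (25.9%) nearer the minus-strand gene than that and 112 (29.0%) nearer the plus-strand gene. The central shares were 44.1% and 46.4% in replicates 1 and 2. The pooled regions outside the IDR list had 44.1% in the third at the centre, close to the share of members. Member summits lay between the starts more often than theirs, 93.9% against 79.4%, and in narrower pairs, with a median of 476 bp against 641 bp. Signal changed little with position, with medians of 111, 108 and 94.8 from the minus-strand side to the plus-strand side.

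The nearer distance grew with the spacing. For a summit between the starts, that distance cannot go past the midpoint, so narrow pairs allow only short ones. Below 300 bp the summit was a median of 61 bp from the nearer start and 43.4% of 83 summits were central. From 300 to 599 bp these values were 154 bp and 56.4% of 156. From 600 to 999 bp they were 192 bp and 31.9% of 113. At 1000 bp or more they were 402 bp and 41.2% of 34, but there the windows of both strands reach only the middle of the pair. The median signal was 103, 109, 106 and 117 over these classes.

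The edges of the windows set which peaks were members. The summits nearest inside the upstream edge were 999 bp from nol-58, in the pair with zip-4 (signal 64.7), and 995 bp from cls-2, in the pair with R107.5 (99.1). The nearest outside were 1021 bp from har-1, a single-strand peak of wht-3 (67.6), and 1022 bp from nep-18, a single-strand peak of usp-39 (118). Inside the downstream edge, summits lay 197 bp into T28F4.4, in the pair with pbrm-1 (57.9), and 189 bp into spd-5, in the pair with npp-6 (80.6). Outside it they lay 292 bp into ctps-1 (51.4) and 395 bp into agt-2 (137). A start over 900 bp away made 15 of the members.

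Signal repeated between the replicates. Of the 411 members 410 had an overlapping region (at least 1 bp) in both replicate lists. The exception, the peak at hrpf-2 and bli-6, had none in replicate 2. Spearman's rho of signal was 0.837 over the 410 members, and Pearson's r of log2 signal was 0.903. Over the 583 single-strand promoter peaks found in both lists, rho was 0.692. The lists share a control alignment and the IDR list was made from both replicates, so these values describe the lists and are not independent of the choice of peaks.

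**Figure D5:**
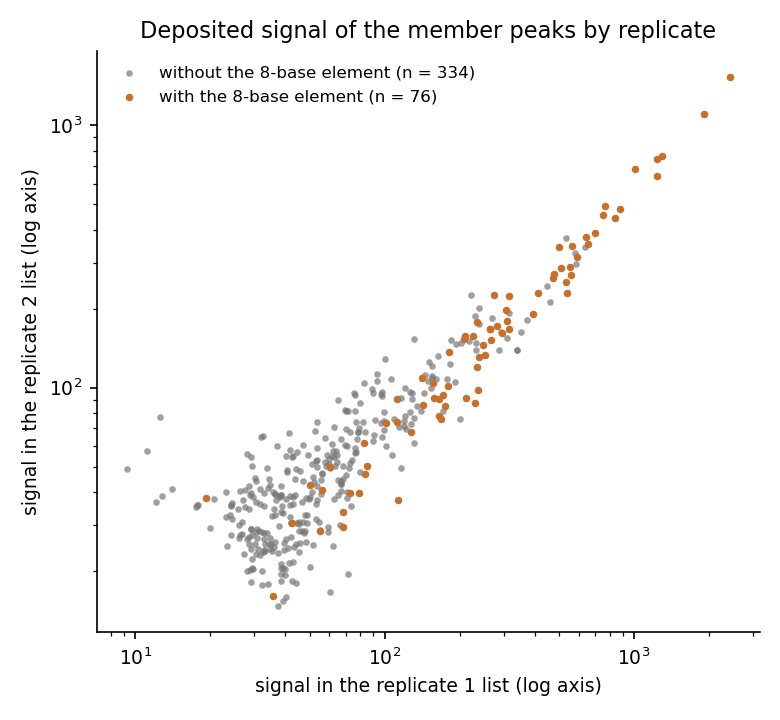
Deposited signal of the 410 members found in both replicate lists, in replicate 1 (x axis) and replicate 2 (y axis), both on log axes, for the 76 members with the 8-base element (orange) and the 334 without it (grey). Points spread more at low signal, and the members with the element lie mostly at the upper right.

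Summit positions repeated more closely where the signal was high. The median distance between the summits of the replicates was 15 bp over members, 21 bp over single-strand promoter peaks and 36 bp over peaks off promoters, and 89.3% of members were within 50 bp. It was 5.5 bp over the first 50 members by signal, 12 bp over members 51 to 100, 14 bp over members 101 to 200 and 22 bp over the others. Members with the 8-base element had a median of 9.5 bp and those without it 17 bp. The scatter of replicate signals also widened at low signal.

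The ranks of a few members differed widely between replicates, in both directions, and each named here had a signal below the median of members. The peak at H12C20.7 and nhr-68, a nuclear hormone receptor gene, had a signal of 12.5 and rank 5196 in replicate 1 and 77.2 and rank 280 in replicate 2. The peak at hgo-1, which encodes homogentisate oxidase of tyrosine breakdown, and spe-46 ranked 9782 and 618, and that at ifbp-1 and cpz-2 ranked 6672 and 476. The largest differences the other way were at patr-1 and dna-2, ranked 545 and 4534, zip-4 and nol-58, ranked 435 and 3294, and F01D4.5 and ced-5, ranked 997 and 6000. Of the members, 390 (94.9%) were within the first 1373 autosomal regions of replicate 1 and 331 (80.5%) within those of replicate 2.

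Genes of cytosolic ribosomal proteins were the list with the largest share at members. Of the 81 autosomal genes 41 (50.6%) were at a member summit, against 4.87% of all autosomal coding genes, and 50 of the 81 belong to a divergent pair. The 38 peaks had a median signal of 193. The summit was a median of 301 bp from the ribosomal protein gene and 191 bp from its partner, and the ribosomal protein gene was the nearer in 12 of 41. Of the 38 peaks, 10 carried the 8-base element. The 3 of highest signal were those at rpl-20, rps-12 and rpl-15, given above.

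Genes of mitochondria and translation were present in smaller shares. Of the 65 genes of oxidative phosphorylation 21 (32.3%) were at a member, led by ndua-8 and by cox-10, at a peak shared with Y38E10A.33 (signal 830, 561 in replicate 1 and 268 in replicate 2), and by nuo-6 of complex I with tofu-5 (295, 212 and 91.3). Mitochondrial ribosomal proteins had 10 of 70 genes (14.3%), with mrps-7, mrpl-40 (733, 472 and 262) and mrps-21 (513, 354 and 163) in the lead. Of the 38 translation factors 11 (28.9%) were at a member, with iff-2, which encodes the translation factor eIF5A (446, 239 and 201), eef-1A.1, which encodes elongation factor 1 alpha (445, 222 and 225), and ifg-1, which encodes the scaffold eIF4G (385, 254 and 134). Aminoacyl-tRNA synthetases had 3 of 32 genes (9.38%), at fars-1, ears-2 (339, 193 and 146) and aars-1 (164, 101 and 73.5).

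Genes of protein folding and turnover followed. Of the 60 chaperone genes 16 (26.7%) were at a member, and the 3 of highest signal were all subunits of the CCT chaperonin, which folds actin and tubulin: cct-1 with mig-5 (512, 316 and 193), cct-8 with Y55F3AR.2 (459, 293 and 162) and cct-6 with alh-9 (427, 264 and 168). Of the 33 proteasome genes 10 (30.3%) were at a member, all 3 leading ones being genes of the regulatory particle, rpn-8 with mrps-6 (319, 229 and 87.5), rpn-3 with hsp-110 (250, 149 and 106) and rpn-12 with rad-23 (248, 142 and 109). The ubiquitin pathway had 5 of 47 (10.6%), led by rfl-1 with col-8 (452, 296 and 162), uba-5 with clec-53 (363, 207 and 153) and ubc-6 with aka-1 (153, 76.5 and 74.2).

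Of the 43 splicing genes 17 (39.5%) were at a member, led by sftb-6, rsp-2 and rsp-1, a pair of SR protein genes that share 1 peak (209, 126 and 80.7), and sftd-3 (200, 128 and 67.6). RNA export, exosome and nucleolar genes had 11 of 49 (22.4%), with npp-9 (486, 310 and 179) and npp-3 (385, 234 and 148), which encode nuclear pore proteins, and nol-6 (425, 267 and 152). Membrane trafficking genes had 16 of 73 (21.9%), led by copz-1, vps-32.1 (263, 155 and 111) and sec-61.B (203, 93.2 and 113). Histone and chromatin genes had 9 of 109 (8.26%), led by hat-1, wapl-1 with htz-1 and set-16 with drr-2 (452, 269 and 185). Cell cycle and replication genes had 8 of 53 (15.1%), led by efl-1, a gene of the E2F family (162, 107 and 55.5), cdc-6, a replication licensing gene (153, 97.4 and 65.0), and cye-1, the cyclin E gene (84.7, 29.2 and 54.4).

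Large gene families of regulated or external functions were below the background share. Chemoreceptors had 4 of 1323 genes at a member (0.302%), C-type lectins 2 of 237 (0.844%), nuclear hormone receptors 3 of 246 (1.22%), homeobox genes of the ceh class 1 of 45 (2.22%) and cuticle collagens 4 of 129 (3.10%). Several of their members were shared with a gene of a list above or of another function: sri-5 with rsr-1 (196, 120 and 71.2), ceh-38 with malt-1 (298, 192 and 105), nhr-47 with dnj-19 (120, 61.8 and 54.8), nhr-142 with F44E7.9 (120, 79.2 and 39.5), col-38 with rpl-5 (131, 70.5 and 60.2) and col-2 with ndc-80, a kinetochore gene (122, 64.2 and 55.2). Only srz-97 and clec-57 paired genes of these families with each other (68.1, 29.8 and 38.4). The share of genes in a divergent pair differs between lists, from 8 of 45 homeobox genes to 81 of 109 histone and chromatin genes, so the shares were also taken over paired genes alone. Of the 4764 genes in a divergent pair, 792 (16.6%) were at a member. Among paired genes the share was 82.0% for cytosolic ribosomal proteins, 55.6% for splicing, 55.3% for oxidative phosphorylation, 50% for translation factors, 48.4% for chaperones, 45.5% for the proteasome, 42.9% for membrane trafficking, 34.5% for RNA export, exosome and nucleolus, and 33.3% for mitochondrial ribosomal proteins. It was 26.1% for cell cycle and replication genes, 25% for the ubiquitin pathway and 20% for aminoacyl-tRNA synthetases. It was below that of all paired genes for homeobox genes (12.5%), cuticle collagens (11.4%), histones and chromatin (9.88%), nuclear hormone receptors (6.98%), C-type lectins (2.53%) and chemoreceptors (1.37%). Histone and chromatin genes were thus above the background share over all genes and below it over paired genes.

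Genes of these lists met across the same promoter in 24 members, and both genes came from the same list in 8. Ribosomal protein genes faced each other at rpl-39 and rps-30 (V, 7776180 to 7776457, signal 311), at rps-14 and rpl-36 (III, 7179749 to 7179935, 185) and at rps-10 and rpl-24.1 (169). Splicing genes did so at rsp-2 and rsp-1 and at snr-3, an Sm protein gene, and rsp-5 (82.2). Histone genes his-67 and his-68 (128), wapl-1 and htz-1, and the cell cycle genes orc-5, a subunit of the origin recognition complex, and cyb-1, a cyclin B gene (58.3), completed the 8. Of pairs across lists, rpl-28 faced mrpl-49 (509), rpl-7A faced set-21 (354), hsp-110 faced rpn-3, sec-61.A faced rps-18 (78.7), rpl-36.A faced nuo-1 (75.4), rab-11.1 faced rpl-7 (84.8), dnj-29 faced ndua-2 (82.1), eif-4A3 faced vps-20 (71.5), rpn-5 faced scc-1, a cohesin gene (73.5), and vps-25 faced uba-2 (64.6).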

How the data were processed

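The 2 biological replicates of 1 group were used through 4 peak lists on ce11: a relaxed list per replicate (30000 and 29367 regions), a relaxed list of the pooled replicates (30000) and the list thresholded by IDR (1584). Per the list of files deposited by the authors, the relaxed lists came from alignments together with a control alignment. Signal values were deposited by the authors, with no scale stated. The summit offset was deposited too and set each summit, in 1-based coordinates. Not given in the sources used here were the aligner, the caller, the IDR threshold and the depth per sample. Counting error per region is therefore unknown. Regions and genes are not replicates of a condition. There was therefore no test, and values from each replicate list (its 1373 autosomal regions of highest signal) stand beside the IDR values.

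Starts came from Ensembl release 115, compared with ce11 by chromosome name and length (0 regions beyond an end), and sequence from RefSeq. Genes were counted by identifier. Motifs were searched in 201 bp windows. Named members are the 20 of highest signal, the 3 of highest signal per list, those with listed genes on both strands, extremes of spacing, of replicate rank and of the window edges, and pairs with most summits. Members, lists and motifs were chosen with earlier results of these data known, and a name pattern for chemoreceptors that also took genes of other families was corrected after values were seen. Alternatives changed the window, the starts used, the list, the signal threshold, merging of close summits and the motif window. Python 3.11.15, numpy 2.4.6, pandas 2.3.3 and scipy 1.17.1 were used, and the functions were tested on simulated data.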

Additional observations from a re-analysis of the deposited data

How the results depend on the processing

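Of 75 values recomputed with 1 choice changed, 45 stayed within 1.5 times the count or within 1 SD between the replicate lists, and 30 moved further. That SD comes from 2 lists and is small for some shares. Counting summits within 200 bp once left 1363 autosomal peaks and the same 411 members. Values of the members alone therefore did not move with that choice. The paired summits 201 to 210 bp apart lay beyond its limit. The lists of replicates 2 and 1 alone gave 36.8% to 41.3% of promoter peaks in divergent promoters, density ratios of 5.29 to 6.38, 13.6% to 17.0% of pairs bound, spacings of 476 to 511.5 bp, nearer starts at 144 to 153 bp, 92.9% to 93.2% of summits between the starts, signal ratios of 1.23 to 1.41 and the 8-base element in 18.6% to 21.5%.

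The 50% of peaks of higher signal gave 262 members, 46.5% of promoter peaks, a density ratio of 7.91, 10.6% of pairs bound, 93.5% of summits between the starts and the element in 27.9%. Windows of 500 bp upstream and 100 bp downstream gave 35.3%, a ratio of 8.91, a spacing of 389 bp, a nearer start at 126 bp, 93.2% between and 53.8% central. Windows of 2000 and 500 bp gave 46.1%, 4.29, 588 bp, 157 bp, 92.9% and 38.5% in the same order. With 1 start per gene 93.2% lay between. Within 50 bp of the summit CGCGCG was in 10.2% and the element in 16.3% of members. For these values the cause was not tested. Spacing and position follow the window by construction, since a wider window admits wider pairs. The alternatives on the element, and counting coding transcripts only (409 members), were chosen after seeing the data. No paired analysis was possible because there was 1 group and no comparison between groups. Read depth is unknown, so regions absent from a list cannot be told from regions too weak to be listed.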

Other observations

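The share of peaks that were members varied among the autosomes. Members were 107 of the 303 peaks on chromosome I (35.3%), 71 of 274 on II (25.9%), 95 of 300 on III (31.7%), 70 of 258 on IV (27.1%) and 68 of 238 on V (28.6%). On the X chromosome 12 of the 211 peaks had their summit in a divergent promoter by the same windows. The share of divergent promoter sequence on each chromosome was not taken, so these values do not compare binding between chromosomes.

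The share of peaks with a noncoding gene near the summit was taken for each class. No such share was taken over all sequence of a class, and peaks off promoters lie by rule away from coding starts. A snoRNA gene, whose product guides modification of other RNAs, lay within 200 bp of 4 members (0.973%), of 24 single-strand promoter peaks (4.10%) and of 32 peaks off promoters (8.49%). For snRNA genes the counts were 2 (0.487%), 13 (2.22%) and 8 (2.12%), and for tRNA genes 4 (0.973%), 4 (0.684%) and 12 (3.18%). A gene annotated as ncRNA lay within 200 bp of 59 members (14.4%), 75 single-strand promoter peaks (12.8%) and 77 peaks off promoters (20.4%). Pseudogenes lay within that distance of 0 members, 6 and 6.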
